A study of Rattus norvegicus with 6 samples.

Results

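MicroRNAs (miRNAs) are short RNAs cut from hairpin precursors that guide Argonaute proteins to messenger RNAs. Pairing rests mainly on the seed, the stretch that starts at the second base of the miRNA. Described here are the miRNA probes of mammals on an array built for PIWI-interacting RNAs (piRNAs). They are the non-control probes printed as 10 spots whose name opens with the species code of rat, mouse or human followed by a miRNA name. The rule found 10 probes among 39886 non-control probes. Of these, 9 carry mouse names (miR-540-3p, miR-681, miR-693-3p, miR-700, miR-701, miR-714, miR-770-3p, miR-804 and miR-1195), 1 carries a rat name (miR-742) and 0 carry a human name.

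RNA came from islets of the rat pancreas, small endocrine organs in which beta cells release insulin. The P10 group held 3 samples from pups 10 days old, each with the islets of 2 pups pooled, and the Adult group held 3 samples from animals 3 months old, each from a single animal. Labels give no strain, genotype or treatment for either group. RNA ligase joined the dye Cy3 to free 3′ ends of total RNA, and which labelled RNA bound a given probe was not measured. Each 1-colour array reads 1 sample, and the number of arrays limits the precision. In such bulk RNA, fewer cells of a type and less RNA per cell cannot be told apart. The question is which of these probes differ between the islets of pups 10 days old and those of adults.

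Among the 10 probes, miR-770-3p and miR-540-3p belong to the imprinted Dlk1-Meg3 region, where the maternal chromosome makes the long non-coding RNA Meg3 and a long run of miRNAs, and the paternal chromosome makes Dlk1 and Rtl1. The region is active in endocrine cells of the pancreas, and lower expression of its miRNAs in islets has been described in human diabetes. Of the 39 miRNAs listed for this region, these were the only 2 with a probe in the set. The 21 miRNAs listed for islet endocrine cells, among them miR-375 and miR-7, had 0 probes here. Lists for acinar, endothelial, stromal, blood, neuronal, muscle and liver miRNAs also had 0 each, so the cell make-up of the islet samples was not measured with this set.

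The sequences below are rat mature miRNAs from RefSeq (build GRCr8), matched by name. They are shown because the results turn on the first pair, and because miR-742 is the probe named for the rat itself. Names of 3 of the 10 probes had an entry, and for the other 7 only the name is used. Capitals mark the seed, bases 2 to 8. The probes' own letters are not used here, so the first 2 show the rat RNA that bears the name and not the mouse sequence printed on the array. The label of the miR-742 probe names no arm, so both are given.
rno-miR-770-3p: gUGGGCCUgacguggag
rno-miR-540-3p: aGGUCAGAggucgauccugggc
rno-miR-742-3p: gAAAGCCAccauguuggguaaa
rno-miR-742-5p: uACUCACAugguugcuaauca

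The 4 seeds differ from each other. Among the 693 mature rat miRNAs of the same table, 0 others with a different sequence carry the seed of any of the 4. Rat miR-770-3p is 17 bases long with 70.6% G or C, and miR-540-3p is 22 bases long with 63.6%. Their longest run in common is 5 bases. The arms of miR-742 hold 45.5% (3p) and 38.1% (5p) G or C.

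Rat miR-770-3p lies at chr6:134298129-134298145 on the plus strand, within the hairpin Mir770 at chr6:134298084-134298159. That hairpin overlaps the annotated bounds of Meg3, chr6:134274056-134306249 (GRCr8). Exons and introns were not used here. Rat miR-540-3p lies at chr6:134321475-134321496, also on the plus strand. Its hairpin, Mir540 at chr6:134321424-134321507, overlaps no other annotated gene and lies between the end of Meg3 and Rtl1, at chr6:134325231-134335780. The hairpins are 23264 bases apart, with 4 other miRNA genes between them. The whole Mir770 hairpin is shown for context, with the 3p arm, bases 46 to 62 of its 76, in capitals.
Mir770 hairpin: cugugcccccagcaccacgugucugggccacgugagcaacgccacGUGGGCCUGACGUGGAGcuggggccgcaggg

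Mir742 lies on the minus strand of the X chromosome, at chrX:150451572-150451648, with 13 other annotated miRNA genes within 50 kb. In mouse this group of X-linked miRNAs is known from the testis.

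Values are given on 2 scales. The signal is the background-subtracted brightness that the scanner software wrote, here the geometric mean over the unmarked spots of a probe. The level is log2 of that signal minus the 75th percentile of the same array, taken over the piRNA probes detected on all 6 arrays, and a level of 0 is as bright as that percentile. Levels of different probes are not set against each other as amounts of RNA. A probe counts as well above background on an array when over 50% of its unmarked spots do by the scanner software's own mark.

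The arrays did not group cleanly by age. P10 1 correlated more closely with Adult 1 (r = 0.941 across tested probes, which are not independent replicates) than with P10 2 (0.889) or P10 3 (0.907). The P10 arrays and Adult 1 shared slide 1, and Adult 2 and Adult 3 lay on slide 2, so age and slide overlap in part. The 75th percentile behind the levels lay between 95.7 and 175. On each array between 27.6% and 36.7% of the 39727 piRNA probes were well above background, and 0 spots were saturated.

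Of the 10 miRNA probes, 4 (miR-540-3p, miR-681, miR-714 and miR-770-3p) were well above background on all 6 arrays, miR-1195 was so on 4 arrays, and 5 were so on none. The share on all 6 arrays was 40% of these 10 probes, against 22.3% of piRNA probes, which have 1 spot each, and 29.6% of the 27 probes named for plant, worm or virus miRNAs. With 10 probes this is a description only. Each P10 array and Adult 1 detected 5 of the probes, and Adult 2 and Adult 3 detected 4, the difference being miR-1195. On average adult arrays differed from P10 arrays by -0.67 probes (p = 0.4 in a two-sided exact permutation test). The counts took only the values 5 and 4, and no split of them gives a larger difference or a smaller p. The test therefore could not show a difference, and no conclusion is drawn from it.

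A test for age was made on the 5 probes that every P10 array or every adult array showed well above background. Of these, miR-1195 entered through the P10 arrays alone, where its mean level was the higher. After Benjamini-Hochberg adjustment over all tested probes at a threshold of 0.05, 1 of the 5 was called, miR-770-3p, higher in adult, and 0 were called lower. Across the whole array 6.05% of 11981 tested probes were called, 4.27% with the adult level higher and 1.78% with it lower. At an unadjusted p below 0.05, 2 of the 5 passed, miR-770-3p and miR-540-3p, against 28.1% of all tested probes. The ages did not overlap for the same 2, against 31.6% of the 11846 tested probes with a value on every array. The median difference of the 5 was 0.08 on the log2 scale, and that of all tested probes was -0.04.

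The miR-770-3p probe was brighter in adult islets. Its signal was 88.4 in P10 1, 51.6 in P10 2 and 68.4 in P10 3, and 142 in Adult 1, 181 in Adult 2 and 217 in Adult 3. All 3 adult arrays lay above every P10 array before any scaling, and the dimmest unmarked adult spot (122) lay above the brightest unmarked P10 spot (92.8). The raw signal, before background subtraction, was between 3.30 and 11.6 times the local background.

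As levels, miR-770-3p stood at -0.99, -0.89 and -1.03 on the P10 arrays 1, 2 and 3, and at 0.03, 0.74 and 1.11 on the adult arrays 1, 2 and 3. The P10 arrays sat close together and the adult arrays were spread out, with Adult 1 nearest to the pups. The group means were -0.97 ± 0.07 in P10 and 0.62 ± 0.55 in adult islets (SD, n = 3 each). The level rose by 1.59 ± 0.35 on the log2 scale (SE; 95% interval 0.78 to 2.41), or 3.02-fold (limma, adjusted p = 0.0468, higher in 3 of 3 adult arrays).

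The call for miR-770-3p lay near its threshold. On slide 1, where Adult 1 is the only adult array, the difference was 1.00 ± 0.47. With slide as a block it was 1.00 ± 0.39 (limma adjusted p = 0.421). Slide 2 held adult arrays alone, so both fits give the same estimate, from Adult 1 against the P10 arrays. The probe stayed called without P10 1 or Adult 1 (limma adjusted p = 0.0446 and 0.019). It was not called without P10 2, P10 3, Adult 2 or Adult 3 (limma adjusted p = 0.108, 0.168, 0.159 and 0.179). Without both P10 1 and Adult 1 the difference was 1.89 ± 0.31 (limma adjusted p = 0.00786), and with normexp background correction it was 0.95 ± 0.35 (limma adjusted p = 0.27). With Adult 1 left out, the P10 arrays lay on slide 1 and the adult arrays on slide 2. Age and slide cannot be told apart in those fits.

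The miR-540-3p probe was dimmer in adult islets on every array, but the difference did not pass the test. Its signal was 83.0 in P10 1, 72.0 in P10 2 and 103 in P10 3, and 64.5 in Adult 1, 34.2 in Adult 2 and 29.7 in Adult 3. All adult arrays lay below all P10 arrays before scaling. At the level of single spots Adult 1 reached into the P10 range, with its brightest spot at 76.7 against 68.9 for the dimmest spot of P10 2, whereas the brightest spot of Adult 2 was 41.2 and that of Adult 3 was 33.8.

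After scaling, miR-540-3p stood at levels of -1.08, -0.41 and -0.44 on the P10 arrays 1, 2 and 3, and of -1.11, -1.66 and -1.76 on the adult arrays 1, 2 and 3. P10 1 and Adult 1 were then nearly level with each other, and the groups were kept apart by 0.036. The difference, adult minus P10, was -0.87 ± 0.34 on the log2 scale (SE; unadjusted 95% interval -1.66 to -0.09; limma adjusted p = 0.147, lower in 3 of 3 adult arrays). Without P10 1 and Adult 1 it was -1.29 ± 0.30 and was called (limma adjusted p = 0.0217), in a fit of the remaining 4 arrays that called 30.5% of all tested probes. Age and slide cannot be told apart in that fit. With limma's array weights the difference was -1.13 ± 0.27 and was also called (adjusted p = 0.0156), where 35.9% of tested probes were. On slide 1 alone the difference was -0.47 ± 0.53 (limma adjusted p = 0.913).

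Because the pair from the Dlk1-Meg3 region differed between the ages in opposite directions as measured, their ratio within each array was taken, a comparison chosen after their values were seen. Such a ratio does not depend on the scaling between arrays. It shows unequal change of the probes and not how the amounts of the RNAs compare. The log2 ratio of miR-770-3p to miR-540-3p signal was 0.09, -0.48 and -0.60 on the P10 arrays 1, 2 and 3, and 1.14, 2.40 and 2.87 on the adult arrays 1, 2 and 3. Both signals already separated the ages, in opposite directions, so the adult ratios had to lie above all P10 ratios. Adult 1 lay between the pups and the other adults. The mean was -0.33 ± 0.37 in P10 and 2.14 ± 0.89 in adult islets (SD, n = 3 each). The difference was 2.47 on the log2 scale, or 5.53-fold. A two-sided exact permutation test gave p = 0.1, the smallest that 3 against 3 arrays can give. The choice of the pair fixed that outcome, so this p adds nothing to the results of the single probes. On slide 1 the difference was 1.47. With normexp it was 1.17, and it lay between 2.10 and 2.97 with any single array left out.

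The miR-681 probe differed from the rest on a single array. Its signal was 35.8, 27.6 and 36.0 on the P10 arrays 1, 2 and 3, and 98.0, 29.3 and 28.5 on the adult arrays 1, 2 and 3. Adult 2 and Adult 3 lay within the P10 range, and Adult 1 alone lay far above it. The 9 unmarked spots of Adult 1 lay between 93.1 and 111, with an SD of 0.08 on the log2 scale, so the brightness was shared by all of them. In levels the difference, adult minus P10, was 0.61 ± 0.43 (SE; 95% interval -0.40 to 1.61; limma adjusted p = 0.388). Without Adult 1 it was 0.16 ± 0.32 (limma adjusted p = 0.75). With slide as a block it was 1.50 ± 0.40, an estimate that rests on Adult 1 as the only adult array of slide 1.

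The miR-1195 probe, near background, was also brightest on Adult 1. Its signal was 10.4, 12.3 and 11.7 on the P10 arrays 1, 2 and 3, and 21.1, 3.68 and 5.67 on the adult arrays 1, 2 and 3. Adult 2 and Adult 3 lay below all P10 arrays, with 0 and 4 of their 10 spots well above background. The ages therefore overlapped, and the level differed by -0.38 ± 0.58 (SE; 95% interval -1.73 to 0.97; limma adjusted p = 0.697). The sign turned on slide 1 alone, at 0.81.

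The miR-714 probe was dim on every array. Its signal was 7.53, 10.4 and 10.5 on the P10 arrays 1, 2 and 3, and 11.6, 7.41 and 7.30 on the adult arrays 1, 2 and 3. The ages overlapped, and Adult 1 was again the brightest array in signal. As a level, miR-714 stood highest on P10 2, at -3.20 against -3.59 on Adult 1. Raw signals were between 1.35 and 1.62 times the local background. The level differed by 0.08 ± 0.39 (SE; 95% interval -0.83 to 0.98; limma adjusted p = 0.909), and its sign changed with the scaling, as without scaling it was -0.13.

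Adult 1 was thus the brightest adult array for miR-540-3p, miR-681, miR-714 and miR-1195 and the dimmest for miR-770-3p. The 75th percentile used for scaling was 139 on Adult 1, against 108 on Adult 2 and 101 on Adult 3. Slide moves with this pattern, because Adult 1 shared its slide with the pups, and the part of slide in it was not tested apart from the fits above.

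The remaining 5 probes, miR-693-3p, miR-700, miR-701, miR-804 and the rat probe miR-742, were well above background on no array and were not tested, and no difference in size is given for them. Raw median signals of miR-693-3p, miR-701, miR-804 and miR-742 were between 19.5 and 24.5 on all arrays. The negative control spots had medians between 19 and 21 and reached 24 to 26. None of the unmarked spots of these 4 probes was well above background. The miR-700 probe came nearest to detection, with raw median signals between 24 and 26.5. It had 2, 5 and 5 spots well above background on the P10 arrays 1, 2 and 3, and 2, 0 and 0 on the adult arrays 1, 2 and 3. A probe at this brightness gives an upper bound only, and a low level of its RNA was not detectable.

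The repeated spots show how finely a probe was read within an array. The SD over spots on the log2 scale had a median over the 6 arrays of 0.08 for miR-681, 0.10 for miR-540-3p, 0.12 for miR-770-3p, 0.22 for miR-1195 and 0.27 for miR-714. For miR-770-3p the spot SD on an array, between 0.05 and 0.22, was smaller than the SD of 0.55 between adult arrays. The SD between P10 arrays, 0.07, was below the spot SD on P10 2 (0.15) and P10 3 (0.18) and above that on P10 1 (0.05). Spot SDs describe single spots, whereas the SD between arrays describes means over spots. Among the 5 tested probes, between 1 (miR-540-3p) and 7 (miR-681 and miR-714) of 60 spots per probe were left out as marked outliers.

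In the tables of normalized values and of changed piRNAs that the authors deposited, 0 of the 10 probes are listed, so no value of theirs stands beside these.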

How the data were processed

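The authors deposited 1 scanner file per array, with spot intensity values written by Agilent Feature Extraction 11.0.1.1, per the file headers. The processed intensity is background-subtracted, with no normalization between arrays. Low signals take a small positive value in it. The mean log2 processed signal over spots without an outlier mark was taken per probe, and the 75th percentile of each array over detected piRNA probes was subtracted. The 11992 probes detected on every array of either age were fitted together (R 4.3.3; limma 3.58.1 with lmFit, then eBayes; two-sided). Benjamini-Hochberg adjustment ran over the 11981 with a p-value. Single comparisons used exact permutation tests over arrays. The fit was checked on simulated data. The scanner files hold no mean spot signal, so normexp (offset 50) used median signals of spot and background. Slides were read from scan identifiers. All miRNA probes well above background on any array are named with values. Members, lists and tests were chosen with earlier results of these data known.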

Additional observations from a re-analysis of the deposited data

How the results depend on the processing

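With all arrays at equal weight, 1 of the miRNA probes was called, miR-770-3p. The count was 0 without scaling, with cyclic loess (adjusted p of miR-770-3p 0.0553), normexp, no detection filter, a filter of at least 1 array, slide as a block and slide 1 alone, and between 0 and 1 with any single array left out. It was 2 with array weights and without both arrays numbered 1, where miR-540-3p joined (limma). Without Adult 1, alone or with P10 1, age and slide cannot be told apart. In the limma fits with 0 calls among these probes, 1 or 2 of them had an unadjusted p below 0.05. Those fits called between 0 and 0.559% of all tested probes. The miRNA probes below 0.05 were not the same in every fit. With slide as a block miR-681 was among them, at 1.50 ± 0.40 on the log2 scale, against 1.00 ± 0.39 for miR-770-3p. Over 24 alternatives miR-770-3p stayed higher in adult, between 0.95 and 1.89 on the log2 scale, with limma adjusted p from 0.0045 to 0.656, and stayed called in 12. Likewise miR-540-3p stayed lower, between -1.29 and -0.23. The median of all tested probes moved to -0.25 without scaling and to 0.31 with normexp, and relative to it miR-770-3p was at 1.64 and 0.64 and miR-540-3p at -0.83 and -0.54. The sign of miR-714 turned without scaling (-0.13), with marked spots kept (-0.024), with array weights (-0.087), without P10 1 (-0.28), without Adult 1 (-0.00063) and without both arrays numbered 1 (-0.36). The sign of miR-1195 turned with normexp (0.35), with the uncorrected signal (0.088), with slide as a block and slide 1 alone (0.81 each) and without Adult 2 (0.10). With any single array left out miR-714 lay between -0.28 and 0.39 and miR-1195 between -0.97 and 0.10. Causes of these moves were not tested. Replicate numbers in the titles did not pair the samples, as deviations of same-numbered arrays correlated at -0.04, 0.24 and -0.23. With the replicate number as a block 0 of the probes were called (miR-770-3p, limma adjusted p = 0.0776), as were 0 of all tested probes, with 3185 at an unadjusted p below 0.05. The difference in detected probes per array stayed between -1 and -0.50. Signal over background limits miR-714 and miR-1195.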

Other observations

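A probe for the cow miRNA miR-425-3p, also a mammal but outside the rule, was well above background on 0 of 6 arrays. Its raw median signals lay between 20.8 and 23, within the range of the negative control spots.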
